A study of Mus musculus with 29 samples.

Results

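The 10 genes described here belong to the Notch pathway: the ligand genes Jag1 and Jag2, the receptor genes Notch1, Notch2 and Notch3, the receptor-modifying gene Lfng, and the target genes Hes1, Hey1, Hey2 and Heyl. They were chosen by name, and all 10 were found among the 51912 gene IDs of the deposited table. All 10 also passed the filter on low counts in each of the comparisons below. The table holds RNA sequencing of ovaries that were dissociated with papain before total RNA was taken, from 29 samples in 8 groups. WT mice (Cdkn1b +/+) and p27null mice (Cdkn1b -/-) were sampled before birth at embryonic days 13.5 (E13.5) and 18.5 (E18.5), and after birth on postnatal day 8 (PND8) and as adults of 12 weeks (12wk). There were 4 WT samples at each age, 4 p27null samples at E18.5, and 3 p27null samples at each of the other ages. Cdkn1b encodes p27Kip1, an inhibitor of cyclin-dependent kinases, and the series asked what cell cycle control does in the developing ovary. The strain, the deleted part of the gene, the litters and any pooling of animals are not given in the sources used here, so p-values measure only the spread between these samples, which may be technical.

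In Notch signalling a ligand on one cell binds a receptor on its neighbour, and the receptor is then cut so that its intracellular part enters the nucleus. There it joins the DNA-binding protein RBPJ and switches on genes of the Hes and Hey families, which encode basic helix-loop-helix repressors. Lfng encodes a sugar transferase that extends O-fucose on the receptors and alters which ligand they answer to. In the mouse ovary germ cells first lie together in nests, and around birth the nests break down as pregranulosa cells enclose single oocytes in primordial follicles. Jag1 in germ cells and Notch2 in pregranulosa cells are the pair best known from that step. Notch3 and Heyl are also typical of pericytes and smooth muscle, and Notch1, Hey1 and Hey2 of vessels. No member was assigned to a cell type in these bulk samples. E18.5 and PND8 lie on either side of nest breakdown.

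By GENCODE M21 (GRCm38), Jag1 (ENSMUSG00000027276) lies at chr2:137081456-137116644 and Jag2 (ENSMUSG00000002799) at chr12:112907819-112929776, both on the minus strand. Of the receptor genes, Notch1 (ENSMUSG00000026923) lies at chr2:26457903-26516663 and Notch3 (ENSMUSG00000038146) at chr17:32120820-32166852 on the minus strand, and Notch2 (ENSMUSG00000027878) at chr3:98013527-98150361 on the plus strand. Lfng (ENSMUSG00000029570) lies at chr5:140607320-140615545, Hes1 (ENSMUSG00000022528) at chr16:30064384-30067796 and Heyl (ENSMUSG00000032744) at chr4:123233556-123249875, all on the plus strand. Hey1 (ENSMUSG00000040289) lies at chr3:8663359-8667256 and Hey2 (ENSMUSG00000019789) at chr10:30832359-30842801, on the minus strand. All values are of whole genes, not of single transcripts.

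Upstream sequence was available for 7 of the 10 members in the RefSeq promoter table (GRCm38.p6): Notch1, Notch2, Notch3, Jag1, Jag2, Lfng and Hey2. The 250 bases before the start annotated by RefSeq were searched on both strands for 4 short motifs. These starts differ from the GENCODE limits given above. The Notch1 stretch (chr2:26503823-26504072) and the Jag2 stretch (chr12:112929496-112929745) lie inside the genes as placed above. Those of Jag1, Lfng, Hey2 and Notch2 partly overlap them. The RBPJ core, TGGGAA, occurred in 21.6% of 32851 promoters of the same length. Its longer form with a preceding G, GTGGGAA, occurred in 5.42%. The E box, which HES and HEY proteins can bind and which reads CACGTG, occurred in 6.02%. The N box, also bound by HES proteins and written CACNAG, occurred in 36.7%. Hey2 is shown because its level differed most between E18.5 and PND8, Lfng because it was the member with the most matches, and Notch2 because it was the receptor that differed between genotypes. The Hey2 stretch is chr10:30842784-30843033 on the minus strand, the Lfng stretch chr5:140607091-140607340 on the plus strand, and the Notch2 stretch chr3:98013288-98013537 on the plus strand. All are written 5′ to 3′ along the gene's own strand, and capitals mark matches to the RBPJ core, its longer form or the E box on either strand.
Hey2: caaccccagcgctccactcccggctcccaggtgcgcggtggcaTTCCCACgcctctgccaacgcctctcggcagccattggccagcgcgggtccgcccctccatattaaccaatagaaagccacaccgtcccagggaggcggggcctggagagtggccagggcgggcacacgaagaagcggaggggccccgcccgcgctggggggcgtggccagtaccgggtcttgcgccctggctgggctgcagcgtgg
Lfng: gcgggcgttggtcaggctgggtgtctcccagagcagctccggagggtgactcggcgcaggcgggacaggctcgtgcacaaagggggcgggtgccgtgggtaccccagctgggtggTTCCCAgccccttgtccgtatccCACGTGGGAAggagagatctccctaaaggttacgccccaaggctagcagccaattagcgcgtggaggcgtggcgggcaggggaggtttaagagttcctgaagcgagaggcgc
Notch2: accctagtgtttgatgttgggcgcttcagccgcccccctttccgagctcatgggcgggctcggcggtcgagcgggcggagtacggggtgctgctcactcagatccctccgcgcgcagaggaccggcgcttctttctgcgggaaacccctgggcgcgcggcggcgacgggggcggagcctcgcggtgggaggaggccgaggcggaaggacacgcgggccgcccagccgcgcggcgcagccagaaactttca
In Hey2 the longer RBPJ form lay on the opposite strand, 207 to 201 bases before the start. In Lfng it lay on the gene's strand, 109 to 103 bases before the start, overlapping an E box at 112 to 107 bases, and a separate RBPJ core lay upstream of it on the opposite strand. Notch2 held neither RBPJ form nor the E box in this window, and its only match was an N box on the opposite strand, 247 to 242 bases before the start. Notch1 and Notch3 held N boxes alone, with 1 and 2 matches, and Jag1 and Jag2 held none of the 4 motifs. A match of letters is a description of the sequence and was not tested for binding.

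Total counts ran from 14095601 to 24855045 in the embryonic libraries and from 24072433 to 48213177 in the postnatal ones. Levels are given as CPM, counts relative to the library total, after scaling of the totals by the trimmed mean of M-values (TMM), and 3 counts, taken as the smallest level a library can show, correspond to 0.0622 to 0.213 CPM. That floor covers counting error only, because several reads can stem from 1 molecule where no molecular identifiers were used. Cdkn1b was lower in the p27null samples at each age without overlap, at 4.29 to 4.75 against 19.1 to 26.1 CPM at E13.5, 9.45 to 15.6 against 95.3 to 123 CPM at E18.5, 65.1 to 79.9 against 133 to 173 CPM at PND8, and 42.1 to 56.2 against 124 to 265 CPM at 12wk. At 12wk that difference did not pass edgeR's quasi-likelihood test (Benjamini-Hochberg adjusted p = 0.211). The ovary label was met by germ cell and granulosa markers with summed levels above the floor in every group, although Zp1, Zp2, Nlrp5, Oosp1 and Fshr were at or under the floor in all libraries at E13.5, as were 7 of 15 meiotic genes, Stra8 and Sycp3 among them, in WT at 12wk. In p27null at 12wk the germ cell sum of 95.27 CPM was mostly Kit (87.59 CPM), with Dazl at 0.317 and Ddx4 at 0.270 CPM and Figla and Lhx8 at or under the floor. Of the libraries in which a marker sum stood apart, 3 bear on values below: WT E13.5 replicate 3, where haemoglobin genes took 19.0% of counts, p27null E13.5 replicate 3, with a summed level of meiotic genes of 1170 CPM against 247.8 and 443 CPM in its group, and p27null 12wk replicate 4, with a summed level of endothelial genes of 2078 CPM against 712 and 838 CPM. Blood and immune markers were also high in p27null PND8 replicate 1 (1877 against 268.7 and 177.7 CPM) and theca and steroidogenic markers in WT 12wk replicate 2 (16900 against 4697 to 8148 CPM).

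Ranked within each group by CPM per kb of merged exon, Hes1 was the most abundant of the 10 members in the embryo and Heyl after birth. At E13.5 in WT, Hes1 stood at 48.9 ± 13.7 CPM per kb (SD, n = 4), Hey1 followed at 11.7 ± 2.11, and these ranges overlapped neither each other nor the next gene. Below them Lfng, Heyl, Notch2, Jag1, Notch3, Notch1, Hey2 and Jag2 formed a series from 4.22 to 0.662 CPM per kb in which each gene's range overlapped its neighbour's. Neighbours in that lower part of the order therefore could not be separated by the spread between samples.

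At PND8 in WT, Heyl (35.4 ± 8.21 CPM per kb, SD, n = 4) and Notch2 (27.9 ± 5.41) led with overlapping ranges, followed by Hes1 (20.0 ± 2.56), Hey1 (10.0 ± 2.32) and Hey2 (9.51 ± 0.322). Lfng was last at 1.72 ± 0.372 CPM per kb, within the range of Jag2 at 2.62 ± 1.09. At 12wk in WT, Heyl (25.4 ± 6.31 CPM per kb), Notch2 (20.4 ± 4.97) and Hes1 (13.0 ± 2.62) were still the top members, each overlapping the next, and Hey1 had moved to the last place at 2.29 ± 0.564 CPM per kb.

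**Figure D1:**
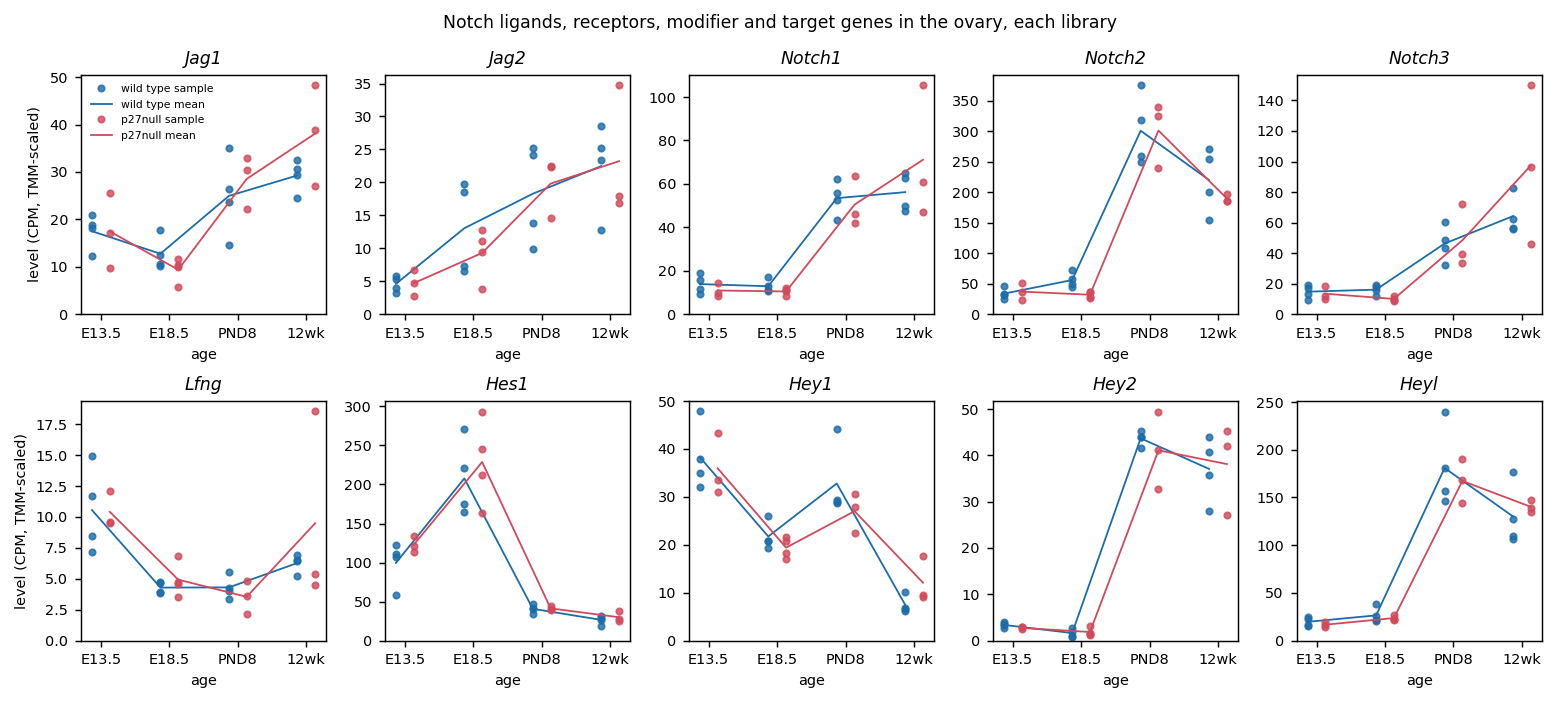
Level of each of the 10 members in every library (y axis, TMM-scaled CPM, starting at 0 with its own scale per gene; x axis, age), with WT in blue and p27null in red and lines joining group means. Hes1 peaks at E18.5 and is low after birth, Hey2 and Heyl are low in both embryonic ages and high after birth, and 1 p27null library at 12wk stands above the others for Notch1, Notch3 and Lfng.

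The make-up of the target genes turned over between E18.5 and PND8. Of the summed CPM per kb of the 4 target genes in WT, Hes1 made up 74.1% ± 6.2 at E13.5 and 89.0% ± 2.67 at E18.5, then 26.9% ± 3.1 at PND8 and 26.7% ± 3.71 at 12wk (SD, n = 4 each). Heyl made up 6.02% ± 1.36, 4.62% ± 1.4, 46.9% ± 4.18 and 51.7% ± 3.28 at the same ages. Hey2 went from 1.19% ± 0.403 and 0.300% ± 0.128 in the embryo to 12.9% ± 1.86 and 16.9% ± 4.39 after birth. These ranges of Hes1, Hey2 and Heyl in the embryonic libraries did not overlap those in the postnatal libraries. In p27null the shares were close in value, with Hes1 at 90.8% ± 2.24 at E18.5 (n = 4) and 28.9% ± 1.29 at PND8 (n = 3), and Heyl at 3.93% ± 1.28 and 46.5% ± 4.09. Shares depend on the transcript length used: with the longest protein-coding transcript, Heyl in WT at PND8 was 40.3% and Hes1 was 28.4%. For Hey2 that transcript is 2.55 kb, against 4.593 kb of merged exon, so its share is higher with it. The shares are also not corrected for the higher level of long and GC-rich transcripts at PND8 described below. With the offset used there, the log2 fold change from E18.5 to PND8 in WT went from -2.44 to -1.82 for Hes1. For Heyl it went from 2.69 to 1.82.

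Among the receptors the order was steadier, with Notch2 the largest part on average in each group. In WT, Notch2 made up 52.7% ± 11.6 (E13.5) and 64.1% ± 2.64 (E18.5) of the summed receptor CPM per kb before birth, and 74.6% ± 3.32 (PND8) and 62.7% ± 5.4 (12wk) after it (SD, n = 4 each). Notch1 made up between 10.1% and 16.4% of it on average in WT, and Notch3 between 15.3% and 30.9%. The share of Notch1 is higher with its longest protein-coding transcript, which is 9.488 kb against 14.23 kb of merged exon. In p27null at 12wk, where the library with high endothelial markers was included, Notch2 was 52.9% ± 12.9 and Notch3 33.1% ± 10.7 (n = 3), and in that library Notch3 (42.95%) exceeded Notch2 (39.87%). Notch1, Notch2 and Notch3 each share exon bases with other annotated genes (1482, 541 and 488 bases), and their counts were split in 28 or 29 of the 29 libraries, so their values are less certain than those of the other 7 members, whose counts were whole.

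**Figure D2:**
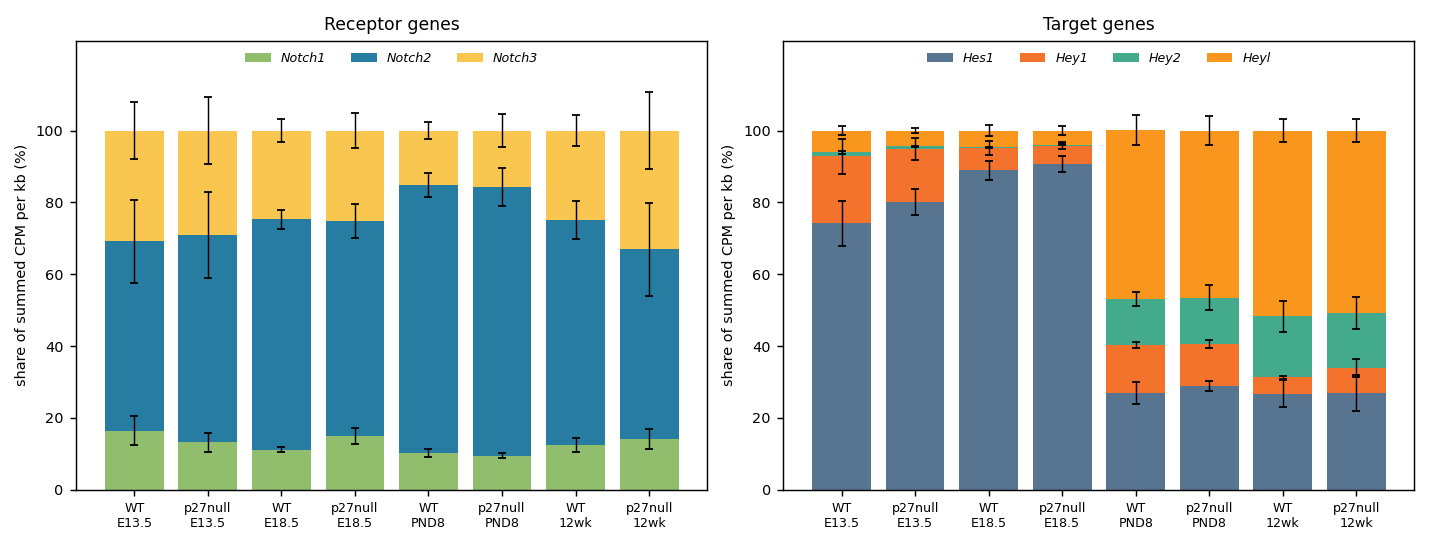
Share of each receptor gene (left) and each target gene (right) in the summed CPM per kb of its set, by genotype and age (stacked bars, y axis in percent from 0; each bar piece is a group mean and its error bar 1 SD over the samples). Hes1 makes up 74.1% and 89.0% of the target sum in the WT embryonic groups and 26.9% and 26.7% in the WT postnatal groups.

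From E13.5 to E18.5, the span in which germ cells pass into meiotic prophase, 5 of the 10 members changed in WT: Hes1, Notch2 and Jag2 rose, and Hey1 and Lfng fell. Over all 16603 genes tested, 34.0% were called (edgeR quasi-likelihood, Benjamini-Hochberg adjusted p under 0.05), so 5 of 10 is near the background. The median log2 fold change was -0.0024 over the members and 0.0069 over all genes. In p27null, Hes1 and Heyl rose and Hey1 and Lfng fell, which is 4 of 10 against 30.2% of all genes. The 2 ages did not overlap for 4 of the 10 members in either genotype, against 34.5% of all genes in WT and 39.9% in p27null. Over the same step in WT, the summed level of meiotic prophase markers went from 336.6 ± 17.1 to 1313 ± 455 CPM and that of pregranulosa and granulosa markers from 485.3 ± 91.4 to 1101 ± 130 CPM (SD, n = 4 each), both without overlap; in each list 12 of the 15 genes tested rose and 1 fell. Their part in the members' changes was not tested. Whether a gene is lower because fewer cells carry it or because each cell holds less of its RNA cannot be told apart in bulk tissue, here and in every result below.

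Hes1, the canonical target, stood at 107, 110, 58.9 and 122 CPM in WT at E13.5 and at 164, 271, 175 and 221 CPM at E18.5. The low E13.5 value was the library with high haemoglobin, and the groups did not overlap. Its log2 fold change was 1.052 (SE 0.231, adjusted p = 0.00584, edgeR), and 0.88 without that library (adjusted p = 0.00369). In p27null Hes1 went from 121, 134 and 114 CPM to 213, 294, 246 and 163 CPM, a log2 fold change of 0.92 (SE 0.179, adjusted p = 0.00553, edgeR).

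Lfng, the sugar transferase gene, fell from 11.7, 14.9, 8.48 and 7.14 CPM to 3.87, 4.66, 4.73 and 3.89 CPM in WT, without overlap between the ages. This was a log2 fold change of -1.31 (SE 0.268, adjusted p = 0.00397, edgeR), and in p27null it was -1.05 (SE 0.249, adjusted p = 0.0123). Hey1 fell in WT from 38.0, 47.97, 35.1 and 32.1 CPM to 25.9, 19.4, 20.8 and 20.9 CPM, by 0.83 on the log2 scale (adjusted p = 0.00357, edgeR). In p27null it fell by 0.87 (adjusted p = 0.0032). Both genes were thus lower at E18.5 in every library of either genotype than in any E13.5 library of the same genotype.

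Jag2, a ligand gene, rose in WT from 5.42, 3.98, 5.86 and 3.17 CPM to 7.33, 18.5, 6.51 and 19.8 CPM, a log2 fold change of 1.49 (SE 0.402, adjusted p = 0.0162, edgeR). The E18.5 libraries formed a low and a high pair, all above the E13.5 range, and the call was lost without either high library, E18.5 replicate 2 (1.27, adjusted p = 0.0569) or replicate 4 (1.23, adjusted p = 0.0543). In these 2 libraries the summed meiotic markers stood at 1717 and 1693 CPM, against 969 and 871 CPM in the other 2, the germ cell markers at 603.6 and 482.4 against 255.2 and 250.7 CPM, and the mitochondrial share of counts at 3.57% and 3.77% against 1.67% and 1.71%. Their part in the Jag2 change was not tested. The receptor gene Notch2 rose from 24.4 to 45.6 CPM (range) to 44.7 to 72.9 CPM, with overlap, by a log2 fold change of 0.72 (adjusted p = 0.0216), a call lost without E13.5 replicate 1 (adjusted p = 0.0594), E13.5 replicate 2 (0.0556) or E18.5 replicate 4 (0.0652). Notch1, Notch3, Jag1, Hey2 and Heyl did not pass in WT. Hey2 had a log2 fold change of -1.07 (adjusted p = 0.0626, edgeR) and passed with DESeq2 (-1.09, adjusted p = 0.0326) and in edgeR without E18.5 replicate 4 (-1.44, adjusted p = 0.0268). Over the alternative edgeR settings with all libraries its adjusted p ranged from 0.00533 to 0.101, so its call depended on the setting. Jag1 had a WT log2 fold change of -0.47 (adjusted p = 0.148, edgeR), and passed without E18.5 replicate 2 (-0.66, adjusted p = 0.037).

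Heyl in p27null stood at 16.6, 14.2 and 19.1 CPM at E13.5 and at 21.5, 23.1, 22.6 and 27.0 CPM at E18.5, without overlap, a log2 fold change of 0.52 (SE 0.154, adjusted p = 0.0304, edgeR). That call was lost in 5 of the 7 fits that each left out 1 library, namely without E13.5 replicate 1 (adjusted p = 0.0587) or 3 (0.0851), or E18.5 replicate 2 (0.0628), 3 (0.0622) or 4 (0.0831). In WT the Heyl value was 0.41 (adjusted p = 0.212), and 0.60 with the GC content and length offset introduced below (adjusted p = 0.0363). E13.5 replicate 3 of p27null is the library with high meiotic genes, and without it Jag1 also passed in p27null, at -1.18 (adjusted p = 0.0171) against -0.88 with it (adjusted p = 0.0817), while Jag2 passed without E18.5 replicate 1 (1.26, adjusted p = 0.0224; 1.00 and 0.109 with it).

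Between E18.5 and PND8, across nest breakdown, 8 of the 10 members changed in WT: Notch1, Notch2, Notch3, Jag1, Hey1, Hey2 and Heyl rose and Hes1 fell. In p27null these 8 and Jag2 changed, with Hes1 again the only member to fall. The background was as large, since 74.6% of 17421 genes were called in WT and 77.4% of 17245 genes in p27null (edgeR quasi-likelihood, Benjamini-Hochberg adjusted p under 0.05). The 2 ages did not overlap for 7 of the 10 members in WT, against 70.6% of all genes. In p27null they did not for 9 members, against 77.5%, so a lack of overlap is common in this step. Genes called higher were 37.6% of all in WT, against 7 of the 10 members, and the median log2 fold change was 1.16 over the members and 0.01 over all genes. In p27null, genes called higher were 38.9% of all, against 8 of 10 members, with medians of 1.87 and -0.01. With the correction for GC content and transcript length described next, 4 members were called higher and 3 lower in WT, with a median of 0.125 over the members, and 6 higher and 2 lower in p27null, with a median of 0.418, while 71.5% and 73.4% of all genes were called.

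Long and GC-rich transcripts were higher at PND8 over the whole table, and this moves with several of the receptor and ligand results. With genes split into 5 equal groups by each property, the median log2 fold change of all genes in WT went from -0.65 in the group of genes with the shortest transcripts to 0.90 in the group with the longest, and from -0.62 in the group with the lowest GC content to 0.48 in the group with the highest. In p27null the same medians were -0.73 and 1.053 for length, and -0.51 and 0.42 for GC content. Notch1, Notch2, Notch3, Jag1 and Jag2 have main transcripts of 5.11 to 10.5 kb, all in the longest group. Depth differed between the same ages, and the table's header names a folder of 2 combined projects without assigning samples, so age and any difference in library making cannot be told apart. A second fit, which removes each library's smooth trend of counts with GC content and length by an offset, chosen after the data were seen, is therefore given beside each result. With that offset 5 members kept their call and direction in WT, namely Notch2, Hey1, Hey2, Heyl and Hes1, and 7 did in p27null, these 5 with Notch1 and Jag1.

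**Figure D3:**
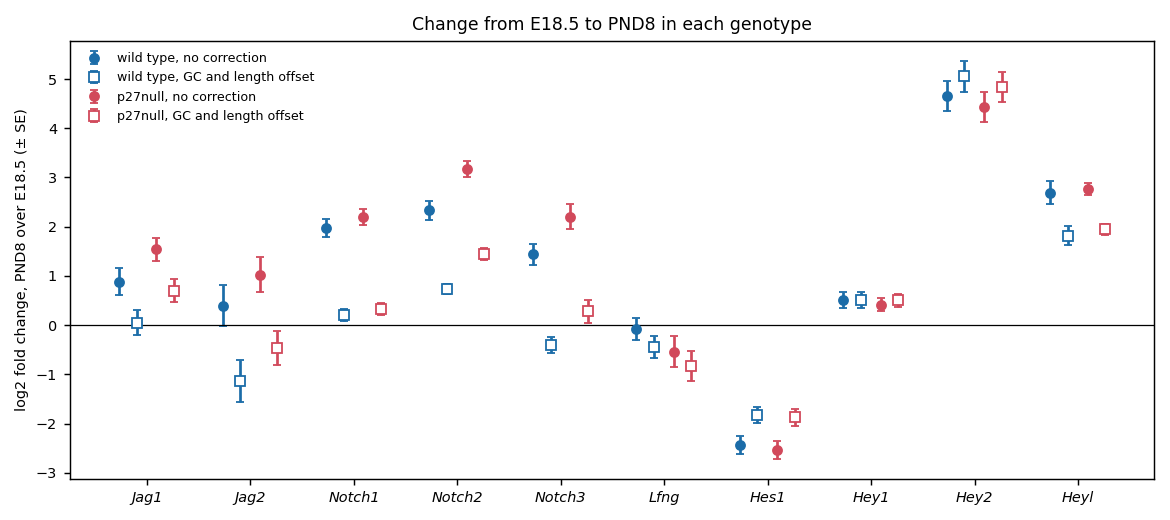
Log2 fold change of each member from E18.5 to PND8 (y axis; points are estimates, bars 1 SE) in WT (blue) and p27null (red), without correction (filled circles) and with the GC content and transcript length offset (open squares). Hey2, Heyl and Notch2 stay above 0 and Hes1 below 0 in both fits, while Notch3 in WT moves from 1.44 to -0.40 and Jag2 in WT from 0.40 to -1.13.

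Hey2, a target gene encoding a repressor of the Hey family, showed the largest change of the 10. It stood at 1.08, 1.84, 0.820 and 2.72 CPM in WT at E18.5 and at 41.6, 45.2, 43.9 and 44.1 CPM at PND8. In p27null it stood at 1.28, 3.14, 1.32 and 1.65 CPM and then at 32.7, 41.2 and 49.4 CPM. Every PND8 library was more than an order of magnitude above every E18.5 library.

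The log2 fold change of Hey2 was 4.65 in WT (SE 0.307, adjusted p = 4.91e-07, edgeR), which is 25.1-fold, and 4.43 in p27null (SE 0.302, adjusted p = 9.08e-07), which is 21.5-fold. With the offset it was 5.05 in WT (adjusted p = 7.76e-07) and 4.83 in p27null (adjusted p = 1.02e-06). Of the 17421 genes tested in WT, 379 had a larger log2 fold change. Over this step in WT the summed level of 15 endothelial markers went from 342 ± 173 to 479 ± 158 CPM (SD, n = 4 each), with overlap. In that list 2 genes rose and 2 fell. The sum of 17 pregranulosa and granulosa markers went from 1101 ± 130 to 4605 ± 677 CPM without overlap, with 10 genes up and 3 down. Theca and steroidogenic markers went from 346 ± 43.3 to 2278 ± 86.5 CPM, with 8 genes up and 0 down. Stromal markers went from 5954 ± 1230 to 11460 ± 1640 CPM, with 5 genes up and 2 down, and neither sum overlapped between the ages. The part of these cell types in the Hey2 result was not tested.

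Heyl, the family member typical of pericytes and smooth muscle, rose in WT from 21.7, 20.1, 25.6 and 38.0 CPM to 181, 156, 240 and 146 CPM, and in p27null from 21.5, 23.1, 22.6 and 27.0 CPM to 190, 168 and 144 CPM. Neither genotype showed overlap. In WT the log2 fold change was 2.69 (SE 0.231, adjusted p = 2.62e-06, edgeR) and 2.76 in p27null (SE 0.119, adjusted p = 2.29e-08). With the offset these were 1.82 (adjusted p = 1.81e-05) and 1.95 (adjusted p = 1.43e-07). The summed level of 12 pericyte and smooth muscle marker genes was 504 ± 75.8 CPM at E18.5 and 890 ± 303 CPM at PND8 in WT (SD, n = 4 each). Its ranges of 434 to 601 and 576 to 1259 CPM overlapped, and 7 of the 12 genes rose and 3 fell. The pregranulosa and granulosa sum went from 1101 ± 130 to 4605 ± 677 CPM without overlap, with 10 genes up and 3 down. The theca and steroidogenic sum (346 ± 43.3 to 2278 ± 86.5 CPM, 8 genes up and 0 down) also rose without overlap. So did the stromal sum (5954 ± 1230 to 11460 ± 1640 CPM, 5 genes up and 2 down). The part of these cell types in the Heyl result was not tested.

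Hes1 moved the other way. It fell in WT from 164, 271, 175 and 221 CPM to 33.9, 41.2, 46.7 and 40.9 CPM, and in p27null from 213, 294, 246 and 163 CPM to 40.5, 43.9 and 39.2 CPM. No PND8 library came within reach of the E18.5 range. In WT this was a log2 fold change of -2.44 (SE 0.18, adjusted p = 9.76e-07, edgeR), 5.42-fold lower, and -2.54 in p27null (SE 0.182, adjusted p = 1.24e-06), 5.8-fold lower. The offset gave -1.82 (adjusted p = 5.83e-06) and -1.87 (adjusted p = 1.64e-05). Hes1 was thus the target gene that fell while the 3 Hey genes rose.

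Hey1 rose by less. Its WT values were 25.9, 19.4, 20.8 and 20.9 CPM at E18.5 and 29.3, 28.8, 44.2 and 28.9 CPM at PND8, without overlap and with 1 high PND8 library. The log2 fold change was 0.51 in WT (SE 0.16, adjusted p = 0.0138, edgeR) and 0.41 in p27null (SE 0.134, adjusted p = 0.0165), and with the offset 0.51 (adjusted p = 0.0152) and 0.50 (adjusted p = 0.00609). The p27null call was lost without E18.5 replicate 3 (adjusted p = 0.0511) or PND8 replicate 3 (0.0716).

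Notch2, the receptor gene known from pregranulosa cells, rose in WT from 44.7, 57.9, 48.8 and 72.9 CPM to 375, 259, 319 and 250 CPM, and in p27null from 27.0, 36.2, 28.1 and 36.6 CPM to 339, 325 and 239 CPM. All PND8 libraries lay above all E18.5 libraries. The log2 fold change was 2.34 in WT (SE 0.192, adjusted p = 1.97e-06, edgeR) and 3.17 in p27null (SE 0.163, adjusted p = 1.17e-07), and with the offset 0.73 (SE 0.104, adjusted p = 0.000136) and 1.45 (SE 0.118, adjusted p = 2.46e-06). The direction held in both fits, while the WT fold change went from 5.06-fold to 1.66-fold. The summed level of 17 pregranulosa and granulosa markers was 1101 ± 130 CPM at E18.5 and 4605 ± 677 CPM at PND8 in WT without overlap. Of these genes 10 rose and 3 fell. The theca and steroidogenic sum (346 ± 43.3 to 2278 ± 86.5 CPM, 8 genes up and 0 down) also rose without overlap. So did the stromal sum (5954 ± 1230 to 11460 ± 1640 CPM, 5 genes up and 2 down). The part of these cell types in the Notch2 result was not tested.

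The other 2 receptor genes depended on the correction. Notch1 stood at 10.6, 12.8, 10.9 and 17.1 CPM at E18.5 and 62.2, 43.2, 52.4 and 55.9 CPM at PND8 in WT, a log2 fold change of 1.97 (SE 0.184, adjusted p = 4.65e-06, edgeR) that became 0.20 with the offset (adjusted p = 0.146). In p27null it was 2.20 (adjusted p = 8.52e-07) and 0.33 with the offset (adjusted p = 0.0326). Notch3 stood at 11.8, 15.7, 18.0 and 19.0 CPM and then 60.6, 32.4, 43.4 and 48.7 CPM in WT, a log2 fold change of 1.44 (SE 0.213, adjusted p = 0.000128, edgeR) that turned to -0.40 with the offset (adjusted p = 0.0438). In p27null the Notch3 value was 2.21 (adjusted p = 3.67e-05), and 0.29 with the offset (adjusted p = 0.291). The sign of the Notch3 value in WT thus differed between the fits.

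The ligand genes also depended on it. Jag1, the ligand known from germ cells, stood at 10.6, 17.8, 10.2 and 12.5 CPM and then 35.1, 14.7, 23.7 and 26.4 CPM in WT, with overlap, a log2 fold change of 0.88 (SE 0.272, adjusted p = 0.0128, edgeR) and 0.05 with the offset (adjusted p = 0.874). In p27null it rose from 9.89, 10.3, 5.77 and 11.6 CPM to 30.3, 33.0 and 22.2 CPM, by 1.54 (adjusted p = 0.000183) and by 0.70 with the offset (adjusted p = 0.0219). Jag2 had log2 fold changes of 0.40 in WT (adjusted p = 0.412) and 1.03 in p27null (adjusted p = 0.0256), which became -1.13 (adjusted p = 0.035) and -0.47 (adjusted p = 0.251) with the offset. The p27null call of Jag2 was also lost without E18.5 replicate 4 (adjusted p = 0.0546), PND8 replicate 1 (0.0778) or PND8 replicate 3 (0.0736). Lfng did not pass in either genotype without the offset, at -0.07 in WT (adjusted p = 0.778) and -0.54 in p27null (adjusted p = 0.142), and with it stood at -0.44 (adjusted p = 0.106) and -0.83 (adjusted p = 0.0307). Meiotic prophase markers fell in WT in all 14 of the 14 genes tested over the same step, from a summed 1313 ± 455 CPM to 55.1 ± 12.3 CPM. Germ cell and oocyte markers did not move together: 8 of 15 genes rose and 6 fell. Their sum was 398 ± 175 CPM and then 481 ± 299 CPM (SD, n = 4 each), with overlap. The part of either list in the ligand values was not tested.

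The p27null minus WT difference in this step was tested directly in 1 fit of all 29 samples. None of the 10 members passed, against 0.329% of 20359 genes, and DESeq2 also called none. At an unadjusted p under 0.05 there was 1, against 8.74% of all genes: Notch2, whose rise was larger in p27null by 0.81 on the log2 scale (SE 0.318, unadjusted p = 0.0168, adjusted p = 0.463). Across birth, differences between genotypes in the size of these changes were not detectable with these samples.

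From PND8 to 12wk fewer members changed. In WT, Hey1 and Hes1 fell and Lfng rose, 3 of 10 against 30.5% of 17293 genes. In p27null, Hey1 and Notch2 fell, 2 of 10 against 29.1% of 17437 genes (edgeR quasi-likelihood, Benjamini-Hochberg adjusted p under 0.05). Both counts are close to the background. The 2 ages did not overlap for 2 of the 10 members in WT (34.3% of all genes) and for 3 in p27null (47.9%). The medians were -0.01 over the members and -0.0079 over all genes in WT, and 0.15 and -0.01 in p27null. The fall of Hey1 in WT was the only one of these 5 calls that held in each fit that left out 1 library.

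Hey1 went from 29.3, 28.8, 44.2 and 28.9 CPM to 6.26, 6.89, 10.2 and 6.52 CPM in WT, the clearest change of this step and without overlap. The log2 fold change was -2.06 (SE 0.2, adjusted p = 0.000213, edgeR). In p27null it went from 27.9, 30.7 and 22.5 CPM to 9.45, 9.09 and 17.7 CPM, by -1.06 (SE 0.303, adjusted p = 0.0394). The high 12wk value was the library with high endothelial markers, and without it the log2 fold change was -1.48 (adjusted p = 0.00319). Leaving out any of the other 5 libraries ended the p27null call, with log2 fold changes from -1.18 to -0.87: PND8 replicate 1 (adjusted p = 0.0913), 3 (0.124) or 4 (0.0645), or 12wk replicate 1 (0.0926) or 3 (0.0731).

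Hes1 fell in WT from 33.9 to 46.7 CPM (range) to 26.8, 19.0, 31.5 and 28.6 CPM, by 0.54 on the log2 scale (adjusted p = 0.0287, edgeR), without overlap. In p27null the value was -0.37 (adjusted p = 0.167), and -0.59 without the library with high endothelial markers (adjusted p = 0.0123). Lfng rose in WT from 4.28, 3.36, 3.99 and 5.57 CPM to 6.92, 5.20, 6.56 and 6.42 CPM, with overlap, by 0.62 (adjusted p = 0.0468), a call that was lost with the offset (adjusted p = 0.0557). Notch2 in p27null fell from 339, 325 and 239 CPM to 197, 186 and 186 CPM, by 0.58 (adjusted p = 0.0194), and in WT stood at -0.38 (adjusted p = 0.186). The Hes1 call in WT was lost without PND8 replicate 2 (adjusted p = 0.0648), 3 (0.075) or 4 (0.0659) or 12wk replicate 1 (0.0593). The Lfng call held only without PND8 replicate 4 or 12wk replicate 2, with adjusted p up to 0.12 in the other 6 fits, and the Notch2 call in p27null was lost without PND8 replicate 1 (0.0614) or 3 (0.0792). Notch3 in WT did not pass (0.54, adjusted p = 0.069, edgeR), but did without PND8 replicate 1 (0.71, adjusted p = 0.0278) and with the offset. Heyl in WT (-0.40, adjusted p = 0.156) passed without 12wk replicate 3 (-0.57, adjusted p = 0.0336) and under an alternative setting with all libraries. In p27null, Notch3 (1.11, adjusted p = 0.146) and Jag1 (0.51, adjusted p = 0.187) passed without 12wk replicate 3, at 1.47 (adjusted p = 0.0272) and 0.73 (adjusted p = 0.036).

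Comparing genotypes within an age, Notch2 at E18.5 was the one member that differed, lower in p27null. None of the 10 passed at the other ages. With edgeR's quasi-likelihood test and Benjamini-Hochberg adjustment, 0.00606% of all genes were called at E13.5, 4.99% at E18.5 (1.67% lower in p27null), 0.349% in the PND8 comparison and 0.0115% in that of 12wk, against which the counts of 0, 1, 0 and 0 of 10 are to be read. The members at an unadjusted p under 0.05 numbered 2 of 10 at E18.5 (22.1% of all genes), 1 at 12wk (9.63%) and 0 at E13.5 (3.49%) and PND8 (15.0%), so these counts are near or below their background. DESeq2 called 2 members at E18.5, where it called 1637 genes in all, and none at the other ages. The background moved with single libraries: in the fits that each left out 1, edgeR called between 246 and 1372 genes at E18.5, against 814 with all libraries, and between 0 and 147 in the PND8 comparison, against 62. The median log2 fold change of p27null over WT at E18.5 was -0.24 over the members and -0.04 over all genes.

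**Figure D4:**
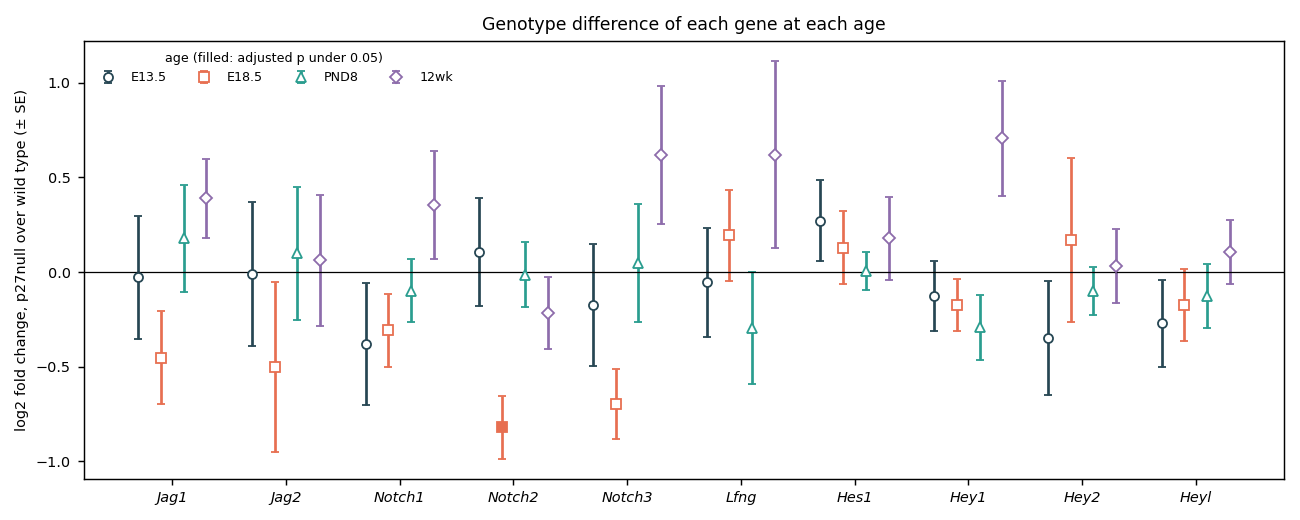
Log2 fold change of p27null over WT for each member at each age (y axis; points are estimates, bars 1 SE, and a filled point marks an adjusted p under 0.05). Notch2 at E18.5 is the single filled point, at -0.82, and every other point is open.

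Notch2 at E18.5 stood at 44.7, 57.9, 48.8 and 72.9 CPM in WT and at 27.0, 36.2, 28.1 and 36.6 CPM in p27null. Every p27null library lay below every WT library, a pattern that 5.56% of all genes showed in this direction. The log2 fold change was -0.82 (SE 0.166, adjusted p = 0.0184, edgeR), so the p27null level was 56.6% of the WT level. With the GC content and length offset it was -0.72 (adjusted p = 0.00578). The call was lost without WT replicate 4 (adjusted p = 0.0522), p27null replicate 1 (0.0518) or p27null replicate 3 (0.0834), with log2 fold changes from -0.92 to -0.67 over the 8 fits that each left out 1 library.

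Notch3 at E18.5 stood at 11.8, 15.7, 18.0 and 19.0 CPM in WT and at 12.0, 9.99, 9.13 and 8.96 CPM in p27null, where only the lowest WT library and the highest p27null library overlapped. Its log2 fold change of -0.70 (SE 0.184) missed the threshold in edgeR (adjusted p = 0.0535) and passed in DESeq2 (-0.67, adjusted p = 0.00926). Of the 8 fits that each left out 1 library, only that without WT replicate 1 passed in edgeR (-0.82, adjusted p = 0.0203), and the others had adjusted p up to 0.168. With the offset it was -0.53 (adjusted p = 0.0857), and with all groups in 1 fit -0.69 (adjusted p = 0.22). Jag1 (-0.45, adjusted p = 0.303), Jag2 (-0.50, adjusted p = 0.549) and Notch1 (-0.31, adjusted p = 0.368) did not pass at this age. The target genes did not pass either, with Hes1 at 0.13 (adjusted p = 0.737), Hey1 at -0.17 (0.496), Hey2 at 0.17 (0.852) and Heyl at -0.17 (0.631). The lower Notch2 value was therefore not accompanied by a detectable difference in these 4 targets.

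Summed over the 3 receptors per kb, the E18.5 level was 8.10 ± 1.66 CPM per kb in WT and 4.94 ± 0.423 in p27null (SD, n = 4 each), with ranges of 6.35 to 10.3 and 4.57 to 5.37 that did not overlap. Notch2 made up 64.1% ± 2.64 of this sum in WT and 59.75% ± 4.71 in p27null. The sum therefore largely repeats the Notch2 difference and is not a separate result, as Notch1 and Notch3 did not pass. At PND8 the sums were 37.4 ± 6.98 (n = 4) and 37.5 ± 7.42 (n = 3).

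Markers of several cell types moved with genotype at E18.5. Called here means an adjusted p under 0.05 (edgeR), which 3.32% of all genes reached as higher in p27null and 1.67% as lower. The summed level of 12 pericyte and smooth muscle markers was 394.6 ± 67.8 CPM in p27null and 504.1 ± 75.8 CPM in WT. The ranges were 300.5 to 462 and 434 to 601 CPM. None of the 12 genes was called (5 at an unadjusted p under 0.05), and 10 log2 fold changes were negative and 2 positive. The summed level of 11 stromal markers was 4685 ± 738 against 5954 ± 1230 CPM, with overlapping ranges of 3902 to 5685 and 4381 to 7351 CPM. Here 3 genes were called lower (Tcf21, Nr2f2 and Mfap5). All 11 log2 fold changes were negative, 6 of them at an unadjusted p under 0.05. Pregranulosa and granulosa markers summed to 1258 ± 147 against 1101 ± 130 CPM, with ranges of 1091 to 1422 and 910.5 to 1193 CPM. In this list 3 of 16 genes were called higher (Inha, Cyp19a1 and Hsd17b1). Of those 16 log2 fold changes 8 were positive and 8 negative, and Inha alone stood at 223.5 against 100.9 CPM. Meiotic markers summed to 801 ± 239 against 1313 ± 455 CPM, with ranges of 619 to 1150 and 871 to 1717 CPM. Only 1 of 14 genes was called lower, the cohesin gene Rec8. All 14 log2 fold changes were negative, with a median of -0.724, and 7 had an unadjusted p under 0.05. Theca and steroidogenic markers summed to 503 ± 49.2 against 346 ± 43.3 CPM without overlap. There 2 of 11 genes were called higher, Hsd3b1 among them, and 7 log2 fold changes were positive and 4 negative. None of the endothelial markers was called, with sums of 374 ± 34.8 and 342 ± 173 CPM, and 11 log2 fold changes were positive and 4 negative. The part of these cell types in the Notch2 difference was not tested.

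**Figure D5:**
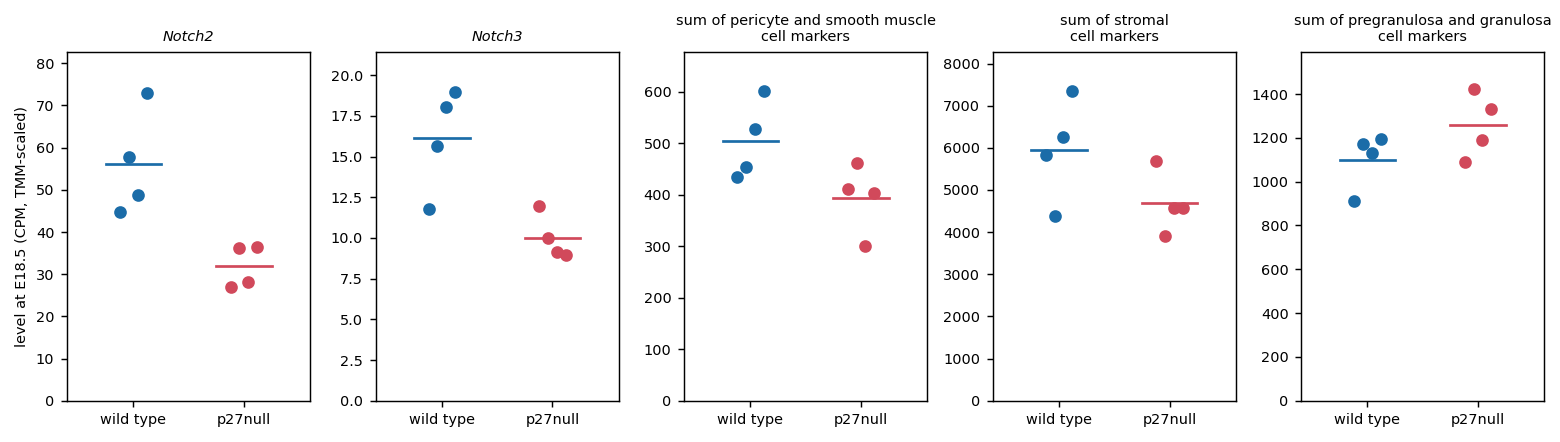
Notch2, Notch3 and the summed level of 3 lists of cell type markers in each E18.5 library (y axes, TMM-scaled CPM from 0; points are libraries, horizontal lines group means; WT blue, p27null red). The 4 p27null libraries lie below the 4 WT libraries for Notch2, while for the marker sums the genotypes overlap.

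At E13.5 the largest difference among the members was Notch1 at -0.38 (SE 0.321, adjusted p = 0.988), and at PND8 it was Lfng at -0.30 (SE 0.294, adjusted p = 0.681). Groups overlapped for all 10 members at both ages, where 3.75% and 14.5% of all genes had groups that did not. Notch2, which differed at E18.5, stood at 32.1, 24.4, 32.5 and 45.6 CPM in WT and 36.0, 23.8 and 51.5 CPM in p27null at E13.5. At PND8 it stood at 375, 259, 319 and 250 CPM against 339, 325 and 239 CPM, and at 12wk at 154 to 271 CPM against 197, 186 and 186 CPM. The genotypes overlapped at each of these 3 ages.

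At 12wk the higher p27null means of Notch1, Notch3, Lfng and Hey1 came with 1 library. Notch1 stood at 60.8, 47.1 and 106 CPM in p27null and 47.5 to 65.1 CPM in WT, and Notch3 at 96.2, 46.2 and 150 CPM against 55.6 to 82.5 CPM. Lfng stood at 5.38, 4.52 and 18.6 CPM against 5.20 to 6.92 CPM, and Hey1 at 9.45, 9.09 and 17.7 CPM against 6.26 to 10.2 CPM. Replicate 4 held the highest value of each, and in it the vessel genes Notch4 (54.0 CPM, against 22.7 and 17.8) and Dll4 (31.7 CPM, against 15.7 and 16.5) were high as well.

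The summed level of 15 endothelial markers in p27null at 12wk was 838, 712 and 2078 CPM, against 709 to 931 CPM in WT, and the pericyte and smooth muscle sum was 1531, 1091 and 2451 CPM against 938 to 1186 CPM. Hey1, the one member with an unadjusted p under 0.05 at 12wk, had a log2 fold change of 0.71 (unadjusted p = 0.0489, adjusted p = 0.515, edgeR). Without replicate 4 the values were 0.29 for Hey1 (adjusted p = 0.763), -0.09 for Notch1, 0.13 for Notch3 and -0.37 for Lfng. The positive signs of Notch1 and Lfng thus rested on that library. Of 12 germ cell markers tested at 12wk none passed, 11 had negative log2 fold changes with a median of -2.41 over the 12, and 10 had an unadjusted p under 0.05, Kit among them, the one that was higher in p27null (87.59 against 36.41 CPM).

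The difference of the genotype effect among the 4 ages was tested as an interaction over all 29 samples. None of the 10 members passed, against 0.806% of 20359 genes, and DESeq2 called none. At an unadjusted p under 0.05 there were 3, against 12.7% of all genes: Hey1 (unadjusted p = 0.0158, adjusted p = 0.267), Notch2 (0.0304, 0.332) and Notch3 (0.0496, 0.391). The E18.5 difference of Notch2 is thus not shown to be different from its values at the other ages.

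The other 54 genes of the pathway (further ligands and receptors, processing enzymes, ubiquitin ligases, nuclear partners and targets) were described from 1 list. None passed in any genotype comparison or in the interaction, and the counts at an unadjusted p under 0.05 were 1 of 51 tested in the E13.5 comparison (3.49% of all genes), 13 of 50 in that of E18.5 (22.1%), 10 of 52 in that of PND8 (15.0%), 3 of 49 in that of 12wk (9.63%) and 3 of 52 in the interaction (12.7%). With the offset 2 of the 50 were called lower in p27null at E18.5, in a fit that called 6.68% of all genes.

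From E13.5 to E18.5 in WT, 11 of 51 genes of this list changed, 7 up and 4 down, fewer for their number than the 34.0% of all genes. The largest rises among genes with a mean of at least 2 CPM were those of Dtx1, an E3 ligase gene (log2 fold change 1.81, from 9.41 to 33.2 CPM on average), Kat2b, an acetyltransferase gene (1.301), and Furin, the protease gene for receptor maturation (0.99). The largest falls were those of Dner (-1.63), Dtx2 (-0.78) and Snw1 (-0.41).

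From E18.5 to PND8 in WT, 39 of 51 changed, 28 up and 11 down, and 32 of these kept call and direction with the offset (22 up, 10 down). This is close to the background of 74.6% without the offset. Among the largest rises were those of Dtx4 (3.61, and 2.70 with the offset) and Dner (3.16, 2.83). The largest falls were those of Dlk1, a non-canonical ligand gene (-2.96, from 246 to 33.7 CPM on average, and -3.79 with the offset), Hes6 (-1.67, -1.64) and Psenen, a gamma-secretase subunit gene (-1.18, -0.97). Rbpj, the gene of the DNA-binding partner of all Notch receptors, rose by 0.87 (adjusted p = 7.13e-05, edgeR), and by 0.58 with the offset; it was named after its value was seen.

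From PND8 to 12wk in WT, 18 of 49 changed, 10 up and 8 down, against 30.5% of all genes. Dll4, a ligand gene of vessels (1.87, from 4.85 to 16.9 CPM), Notch4, a receptor gene of vessels (1.77, from 8.12 to 26.4 CPM), and Mfng, a relative of Lfng (1.20), rose most. Dlk1 (-3.44, to 2.94 CPM), Dner (-2.12) and Dtx1 (-1.13) fell most. The summed endothelial markers over the same step went from 479 ± 158 to 865 ± 106 CPM in WT (SD, n = 4 each), and their part in the Dll4 and Notch4 values was not tested. In p27null the 3 steps gave 18 of 51, 39 of 51 and 18 of 49 genes of the list, against 30.2%, 77.4% and 29.1% of all genes.

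Over the 8 group means, the members' patterns were compared with 12997 genes by Pearson's r of log2(CPM + 1), as a description; the points share libraries, depth and the age difference in GC content and length. The genes most like Notch2 were Six5 (r = 0.997), Adamts10 and Plxna3, those most like Hey2 were Dvl3 (r = 0.9995), Pip4k2b and Midn, and those most like Heyl were Svil (r = 0.999), Mepce and Bmpr1a. For Hes1 they were Fam69a (r = 0.998), Ccdc115 and Nicn1, for Notch1 Robo2, Sort1 and Akap2, and for Notch3 Mtmr1, Sh2b3 and Acvr1. For the ligands they were Plekhg3, Cbs and Fgd6 (Jag1) and Tha1, Zrsr1 and Vps54 (Jag2), for Lfng Asb4, Plscr2 and Crabp2, and for Hey1 Frmd4b, Nrk and Nfib.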

How the data were processed

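The authors deposited 1 table of expected counts per Ensembl mouse gene, made with RSEM per the file headers; 31.4% of its positive values are fractions of a read. The submitters' processing notes name Trim Galore, FastQC 0.11.5, STAR 2.5.2 and RSEM 1.3.0. The genome build, Ensembl release and strandedness are not given in the sources used here. Without strand, reads of overlapping and antisense genes cannot be told apart.

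Expected counts were rounded and tested with edgeR 4.0.16 (limma 3.58.1, R 4.3.3): trimmed mean of M-values scaling, filterByExpr, robust quasi-likelihood fit, and Benjamini-Hochberg adjustment over all genes tested, threshold 0.05. The filter, at its defaults, asked for 15 counts in total and for a CPM equal to 10 counts at the median library size. That CPM had to be reached in at least as many libraries as the smallest group holds. Each pairwise comparison used its 2 groups only. The interaction and the genotype difference in the E18.5 to PND8 step used all 29 samples. Consecutive age steps share samples. Alternatives were DESeq2 1.42.0, other size factors, no filter, 1 fit of all groups, a replicate block, each sample left out and the GC content and length offset (natural splines), the last added after the data were seen. The procedure was tested on simulated data. Exon lengths and GC content come from GENCODE M21 (GRCm38), promoters from RefSeq (GRCm38.p6), which may differ from the authors' annotation. IDs with a symbol numbered 51633.

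The members and gene lists were chosen with earlier results of these data known. Named genes are all 10 members, Cdkn1b, other pathway genes called between genotypes, up to 3 rising and 3 falling most in each WT age step (mean of at least 2 CPM), the 3 genes most like each member, and marker genes at the floor. Marker genes called at E18.5 and Rbpj were named after their values were seen. Of the genes these rules name, 2 are not reported here.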

Additional observations from a re-analysis of the deposited data

Results flagged for a closer look

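Each member in each group of 4 libraries gave 50 sets of values, which share libraries. In each set the highest and lowest value was compared with the rest by Dixon's test at the 95% level, which chance passes in about 1 set in 20. There were 2 such values, not more than that rate gives, both of Hey1 and both in WT replicate 3 of their age. At PND8 Hey1 stood at 44.17 CPM in that library, with the nearest other library at 29.32 CPM. At 12wk it stood at 10.2 CPM, with the nearest other library at 6.895 CPM. The replicate number does not tie these libraries to each other.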

How the results depend on the processing

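Rescaling with DESeq2-type size factors in edgeR changed no call of a member. The number of members called between genotypes at E18.5 was 1, and 2 with DESeq2, and it ranged from 0 to 2 when 1 library was left out. From PND8 to 12wk it ranged from 1 to 3 in WT and from 0 to 3 in p27null when 1 library was left out. In p27null it was 1 with no filter on low counts. With the replicate block, a term for the replicate number, it was 1 as well, and at E18.5 the block kept Notch2 at -0.81 (adjusted p = 0.00281). Same-numbered samples correlated by between -0.096 and 0.161, and differently numbered ones by between -0.238 and 0.203, so the numbers were not taken as pairing. At E18.5, correlations between genotypes were 0.04 to 0.173 among replicates 1 and 3 or among 2 and 4. They were -0.21 to -0.043 for pairs across these sets. Notch2 was lower in replicates 1 and 3 than in 2 and 4 in either genotype. What these sets share is not given, and only a fit with the replicate block takes it in. With the GC content and length offset, 3 values from E18.5 to PND8 changed sign: Notch3 (-0.405) and Jag2 (-1.133) in WT and Jag2 in p27null (-0.469). Over all genes, the genotype calls depended on the tool: DESeq2 gave 71 against 1 at E13.5, 1637 against 814 at E18.5, 715 against 62 at PND8, 293 against 2 at 12wk, 708 against 164 for the interaction and 173 against 67 for the difference in the E18.5 to PND8 step. A fit of all groups gave 59 at E13.5, 0 at PND8 and 68 at 12wk. With no filter there were 258 at PND8 and 12 at 12wk, and with the block 8 and 10, and 5 for the difference in the step. With the offset there were 35 at PND8 and 5 at 12wk. In fits that left out 1 library the genes called in all ranged from 246 (without p27null replicate 3) to 1372 (without WT replicate 2) at E18.5, where only leaving out WT replicate 1 kept the count within 1.5 times, from 0 (without p27null replicate 3 or 4) to 147 (without WT replicate 3) at PND8, from 72 to 235 for the interaction and from 2 to 112 for the difference in the step. From PND8 to 12wk in p27null the count was 2642 without PND8 replicate 3, against 5071. The lowest value of any member, 0.820 CPM for Hey2 in a WT E18.5 library, lay above the highest floor of 0.213 CPM, but depth differed with age and its effect on precision was not tested.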
